A study of Homo sapiens with 12 samples.

Results

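The nuclear-encoded subunits of respiratory complexes II to V were taken as the rows of the count table whose symbol is on a list of 39 genes: 4 of complex II (succinate dehydrogenase), 9 of complex III (cytochrome bc1), 11 of complex IV (cytochrome oxidase) and 15 of complex V (ATP synthase). All 39 were found once among 57353 rows, and all 39 were among the 14955 genes with enough counts to be tested. The libraries came from HepG2, a hepatocellular carcinoma line labelled wild type. Cells were given 10 µM sorafenib, a multikinase inhibitor, or its vehicle DMSO for 12 h, and every culture was then exposed to cycloheximide, which holds ribosomes on mRNA, before lysis. Each lysate was spread on a sucrose gradient and collected as a polysome pool and a light pool, the light pool holding low-molecular complexes, free ribosomal subunits and single ribosomes. This gave 4 groups of 3 libraries: sorafenib polysome, vehicle polysome, sorafenib light and vehicle light.

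The complexes sit in the inner mitochondrial membrane. Complex II oxidises succinate, complex III passes electrons to cytochrome c, complex IV reduces oxygen, and complex V uses the proton gradient that the chain builds to make ATP. Complex II is encoded in the nucleus alone, whereas complexes III to V combine nuclear subunits, translated by cytosolic ribosomes and imported, with a few subunits made inside mitochondria, so that a gradient of cytosolic polysomes bears on the nuclear members. In complexes III and IV the nuclear genes include many small supernumerary proteins that surround the catalytic core.

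Library totals ran between 511065 and 13336689 counts. The sorafenib light group was the shallowest and least alike: libraries 1 and 2 held 2060384 and 511065 counts, and library 2 had 21992 detected genes after thinning to 500000 counts, against 13233 to 16009 in the other 11 libraries. Its replicates correlated at r = 0.797 to 0.934 over log2 CPM, against 0.951 to 0.990 within the other groups. All 9 hepatocyte markers had counts, and their summed level was 30867 to 37448 CPM in sorafenib polysomes, 7592 to 14956 CPM in vehicle polysomes, 27425 to 28918 CPM in sorafenib light pools and 4697 to 9950 CPM in vehicle light pools. Markers of other cell types (10 genes) summed to 67.6 to 72.1 CPM in sorafenib polysomes, 33.4 to 35.6 CPM in vehicle polysomes, 62.9 to 99.8 CPM in sorafenib light pools and 26.4 to 31.9 CPM in vehicle light pools. Both sums, in CPM scaled to library totals alone, were thus higher with sorafenib in both fractions, but not every marker rose. By the test given below, 6 of the 9 hepatocyte markers were higher on polysomes and TTR was lower (log2 fold change -1.08). In light pools 5 were higher and HNF4A was lower (-0.66). Of the 10 other markers 4 could be tested, with 2 higher on polysomes, 1 higher in light pools and none lower. The part of the markers in the results below was not tested. The 39 members held 1.13%, 1.18% and 1.18% of all counts in sorafenib polysome libraries and 2.10%, 2.00% and 2.03% in vehicle polysome libraries. They held 1.32%, 1.10% and 1.29% in sorafenib light libraries and 0.619%, 0.658% and 0.746% in vehicle light libraries. The members' share was therefore lower with sorafenib on polysomes and higher with sorafenib in the light pool, with no overlap between the libraries of the treatments. These are shares of library totals. On that scaling the median log2 fold change of all tested genes was also above 0 in light pools, at 0.31, against 1.01 for the members. On polysomes the medians were -0.11 for all tested genes and -1.06 for the members.

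Start sites are shown because mRNAs that begin with a C followed by a run of pyrimidines form a class whose translation is known to depend on the kinase mTOR. RefSeq windows (GRCh38.p14, 250 bases before to 50 after a start) were found for 31 of the 39 members, with 37 windows in all. A C at the annotated start followed by at least 4 C or T was present in 8 of the 31 (25.8%). It was present in 7.35% of tested genes with a window (733 of 9976) and in 4.07% of all 35116 windows, a share of windows and not of genes. A gene was counted when any of its starts had such a run. ATP5MC2 has 3 annotated starts and COX7A2L has 2, and only the start with the run is printed. The 8 are printed below on the gene's strand over 30 bases, 15 of them before the start, with the run of pyrimidines at the start in capitals.
COX7C (chr5:86617926-86617955, plus strand): ccatttcccatctttCTTTTCagtccttgc
COX4I1 (chr16:85799680-85799709, plus strand): cggcgcggccttgctCTCTTCCggtcgcgg
COX7A2L (chr2:42361203-42361232, minus strand): ccggggaggcggggtCCTTCTCTggggcgg
UQCRH (chr1:46303683-46303712, plus strand): tgacccttacaagtcCTTCTTgatcctgaa
ATP5F1E (chr20:59032321-59032350, minus strand): cttctgtggtctgatCTTCCTgcggctgaa
ATP5PO (chr21:33915790-33915819, minus strand): cccttgcgcgtttctCTCTTCCCactcggg
ATP5MC2 (chr12:53676069-53676098, minus strand): cttcccgctgctccgCCCCTCTCTgtcttc
ATP5MG (chr11:118401591-118401620, plus strand): ggtcctgcagcgggtCCTTCCggcgggtga

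The promoters of many respiratory genes are known for sites of ETS-family factors, NRF1 and YY1. The ETS core CCGGAAG, searched on both strands (CTTCCGG on the other), was found in 15 of 31 members (48.4%), against 10.3% of all windows, a share of windows and not of genes. A fixed 10-letter word for NRF1, on both strands, was found in SDHD and ATP5F1C (6.45% against 1.24% of all windows). A word for YY1 was found in SDHB, UQCRC1 and ATP5PF (9.68% against 1.2% of all windows). A member was counted when any of its windows held the word. No share of tested genes was counted for ETS, NRF1 or YY1, so that members and windows are not a like comparison. The ETS core is given in capitals in 4 windows of 30 bases: ATP5F1A, which was higher on polysomes with sorafenib, and ATP5ME, ATP5PD and UQCRQ, which were lower. In COX4I1 and ATP5MG the core overlaps the pyrimidine start printed above.
ATP5F1A (chr18:46098326-46098355, minus strand): gaggggcagtaCTTCCGGgtcaggtgggcc
ATP5ME (chr4:674255-674284, minus strand): tgcaggttgtgCTTCCGGtgcggaggtcag
ATP5PD (chr17:75047052-75047081, minus strand): ccgggaagataCTTCCGGaaccagccctca
UQCRQ (chr5:132866577-132866606, plus strand): aatggtatctcCCGGAAGttacctcacgac

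On polysomes, 29 of the 39 members fell with sorafenib and 5 rose, while 5 did not pass the test (edgeR quasi-likelihood test, Benjamini-Hochberg adjusted p under 0.05 over all tested genes). Across all tested genes 49.7% were called, 28.8% lower and 20.9% higher. The members' median log2 fold change was -1.20, against -0.26 for all tested genes. Falls were called in 2 of 4 complex II genes, 6 of 9 complex III genes, 10 of 11 complex IV genes and 11 of 15 complex V genes. The 5 that rose were SDHA, UQCRC1, UQCRC2, ATP5F1A and ATP5F1B. As background, these encode the largest nuclear-encoded polypeptides of complexes II, III and V, while the largest polypeptides of complex IV are made in mitochondria, a grouping noticed after the values were seen. In 30 members all 3 sorafenib polysome libraries lay below all 3 vehicle polysome libraries, and in 5 they lay above. How often libraries were apart in this way was not counted over all tested genes. Values are relative to the library, so that a lower level of an mRNA on polysomes cannot be told apart from less of that mRNA in the cell, and fewer cells cannot be told apart from less RNA per cell. With all rows that had any count kept in the fit, 12 members were called lower and 5 higher.

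**Figure D1:**
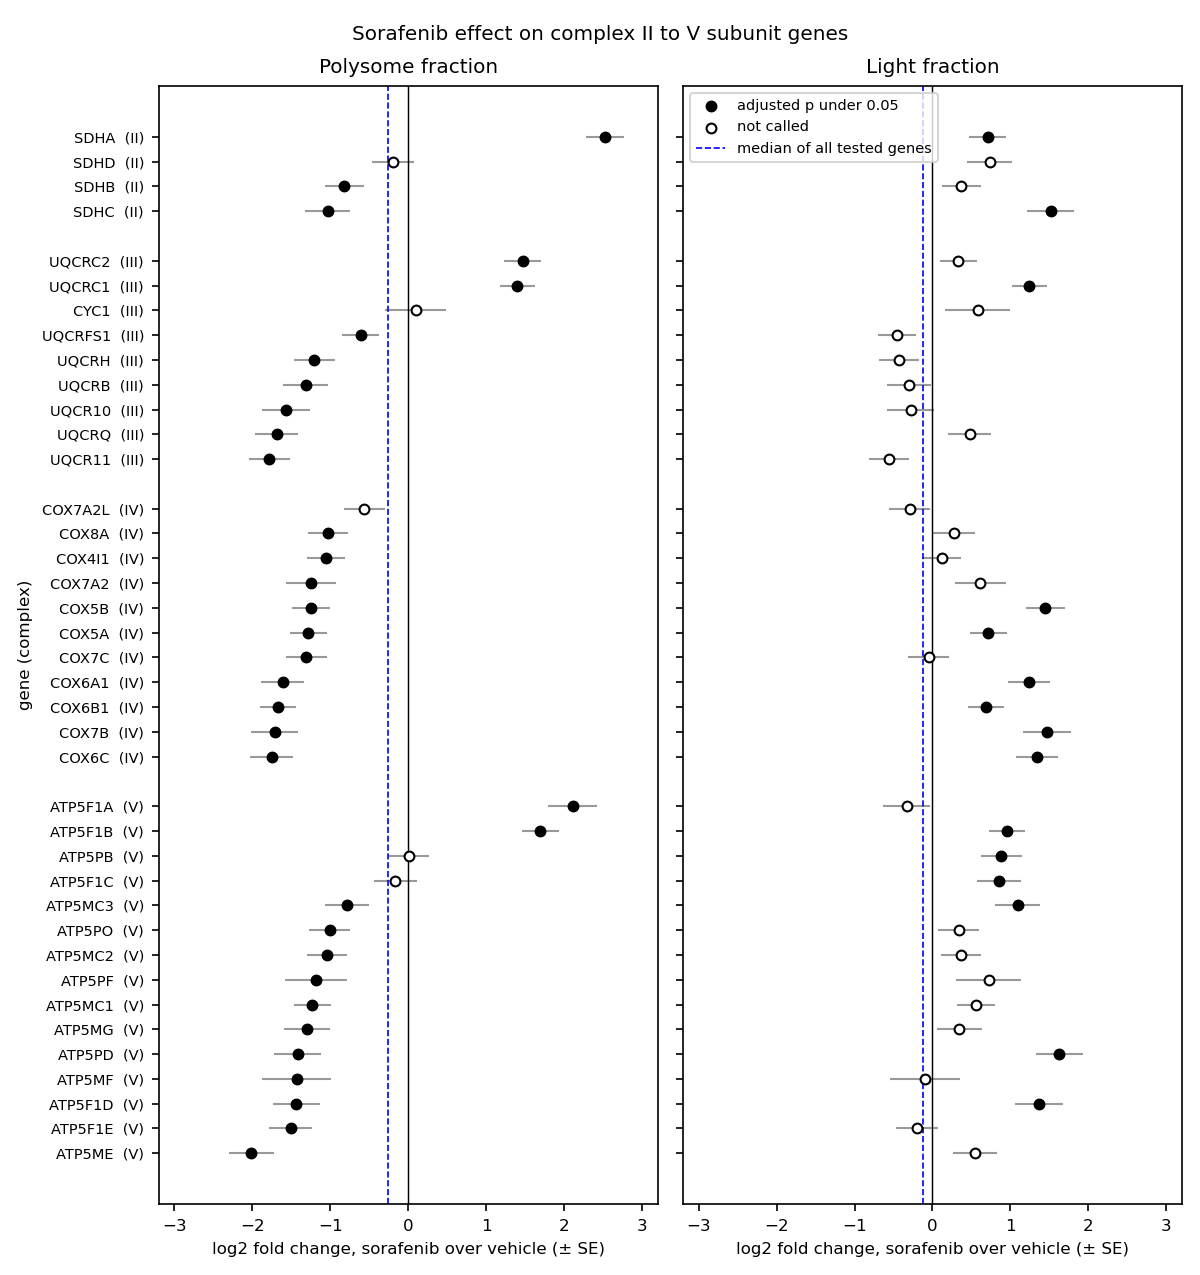
Log2 fold change of sorafenib over vehicle (horizontal axis, bars are SE from 3 libraries per group) for each of the 39 genes, grouped by complex, in the polysome fraction (left) and the light fraction (right). Filled points passed the adjusted p threshold of 0.05. On polysomes 29 filled points lie left of 0 and 5 lie right of it, whereas in the light fraction all 15 filled points lie right of 0.

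In complex II, SDHA, the flavoprotein that binds and oxidises succinate, had 295, 276 and 288 CPM (counts scaled to the library's TMM-adjusted size) in sorafenib polysomes, against 66.6, 40.6 and 41.9 CPM in vehicle polysomes. The rise was 2.52 ± 0.24 in log2 units (SE, n = 3 each, edgeR adjusted p = 7.21e-07), the highest value among the members, with no overlap between libraries. SDHB, the iron-sulfur subunit that takes the electrons from SDHA, had 103, 78.3 and 108 CPM in sorafenib polysomes, against 132, 186 and 193 CPM in vehicle polysomes. Its fall of -0.82 ± 0.25 (edgeR adjusted p = 0.0109) missed the threshold under 9 of 26 alternatives. The membrane anchors SDHC and SDHD bind ubiquinone and heme. SDHC had 141, 149 and 136 CPM in sorafenib polysomes, against 228, 394 and 249 CPM in vehicle polysomes, a fall of -1.03 ± 0.29 (adjusted p = 0.00641) without overlap. For SDHD the 84.4, 95.3 and 95.4 CPM in sorafenib polysomes lay within the 120.2, 72.7 and 123 CPM of vehicle polysomes, and the value of -0.20 ± 0.27 (adjusted p = 0.557) changed sign with the scaling. Within the same 4-subunit complex, SDHA alone was higher, and SDHB and SDHC were lower.

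The core proteins of complex III, which face the matrix and descend from a processing peptidase, were both higher. UQCRC2 had 105, 119 and 108 CPM in sorafenib polysomes, against 53.0, 32.8 and 33.8 CPM in vehicle polysomes, and rose by 1.47 ± 0.24 (edgeR adjusted p = 7.14e-05). UQCRC1 averaged 234 ± 4.83 CPM in sorafenib polysomes and 88.8 ± 12.6 CPM in vehicle polysomes (SD, n = 3 each), a rise of 1.40 ± 0.22 (adjusted p = 6.59e-05). Libraries of the treatments did not overlap for either core protein. Of the redox subunits, the Rieske iron-sulfur protein UQCRFS1 was at -0.61 ± 0.24 (adjusted p = 0.0389), a call that was lost under 19 of 26 alternatives, and cytochrome c1 (CYC1) at 0.10 ± 0.39 (adjusted p = 0.851). All 5 small subunits (UQCRB, UQCRQ, UQCRH, UQCR10 and UQCR11) fell. UQCR11, with the lowest value in complex III, had 138, 140.2 and 121 CPM in sorafenib polysomes, against 510.1, 431 and 431 CPM in vehicle polysomes (log2 fold change -1.78 ± 0.26, adjusted p = 3.35e-05). UQCRQ, whose ETS core is printed above, had 200.9, 211 and 196 CPM in sorafenib polysomes, against 732, 566 and 658 CPM in vehicle polysomes (-1.69 ± 0.28, adjusted p = 8.86e-05). The hinge protein UQCRH, which helps cytochrome c1 meet cytochrome c, was at -1.20 ± 0.26 (adjusted p = 0.000941).

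Complex IV moved almost as a block. Its 10 called genes had log2 fold changes between -1.75 (COX6C) and -1.03 (COX8A). COX6C, a small membrane subunit, had 412, 419.7 and 356 CPM in sorafenib polysomes, against 1185.5, 1587.5 and 1221 CPM in vehicle polysomes (-1.75 ± 0.27, edgeR adjusted p = 5.6e-05). COX4I1, which carries a binding site for adenine nucleotides, averaged 426 ± 39.1 CPM in sorafenib polysomes and 883 ± 118 CPM in vehicle polysomes (SD, n = 3 each). Among the small subunits, COX7B was at -1.71 ± 0.30 (adjusted p = 0.000157), and COX6B1, which helps hold the dimer together, at -1.67 ± 0.23 (adjusted p = 1.98e-05). COX7A2 had 114, 175 and 136 CPM in sorafenib polysomes, against 424, 267 and 318 CPM in vehicle polysomes, a fall of -1.25 ± 0.33 (adjusted p = 0.00406). Its relative COX7A2L, a factor that joins complexes III and IV in supercomplexes, had 258, 227 and 217 CPM in sorafenib polysomes, against 393, 303 and 342 CPM in vehicle polysomes. Those libraries did not overlap either, yet the log2 fold change of -0.56 ± 0.26 missed the threshold (adjusted p = 0.0788), and the difference between COX7A2 and COX7A2L was not tested.

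In complex V the catalytic head went one way and most of the rest the other. ATP5F1A, the alpha subunit, had 558, 505 and 531 CPM in sorafenib polysomes, against 153, 100.6 and 115 CPM in vehicle polysomes, and rose by 2.11 ± 0.31 (edgeR adjusted p = 3.5e-05). ATP5F1B, the beta subunit that holds the catalytic sites, averaged 485 ± 28.2 CPM in sorafenib polysomes and 149.7 ± 23.5 CPM in vehicle polysomes (SD, n = 3 each) and rose by 1.69 ± 0.24 (adjusted p = 1.84e-05). Of the central stalk, which turns inside the head, gamma (ATP5F1C) was at -0.16 ± 0.28 (adjusted p = 0.645), while delta (ATP5F1D, -1.44 ± 0.30) and epsilon (ATP5F1E, -1.51 ± 0.28) fell. In the peripheral stalk, which keeps the head from turning, subunit b (ATP5PB) was at 0.01 ± 0.26 (adjusted p = 0.974), and subunit d (ATP5PD), F6 (ATP5PF, -1.19 ± 0.40) and OSCP (ATP5PO, -1.01 ± 0.26) fell, with the call lost under 10 of 26 alternatives for ATP5PF and 4 for ATP5PO. ATP5PD had 312, 269.7 and 279 CPM in sorafenib polysomes, against 549, 898 and 853 CPM in vehicle polysomes (-1.42 ± 0.30, adjusted p = 0.000796). Each stalk therefore held both genes that fell and a gene that did not pass the test.

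The genes ATP5MC1, ATP5MC2 and ATP5MC3 encode the same mature c subunit of the proton-driven ring with different import presequences. ATP5MC1 had 47.2, 77.6 and 51.4 CPM in sorafenib polysomes, against 158, 128 and 128 CPM in vehicle polysomes (log2 fold change -1.23 ± 0.24, edgeR adjusted p = 0.000376). ATP5MC2, which has a pyrimidine start, had 238, 209 and 221 CPM in sorafenib polysomes, against 439.9, 545 and 393 CPM in vehicle polysomes (-1.04 ± 0.26, adjusted p = 0.0027). ATP5MC3 had 686, 751 and 697 CPM in sorafenib polysomes, against 1188.5, 1252 and 1249 CPM in vehicle polysomes (-0.79 ± 0.28, adjusted p = 0.0263). In each gene the libraries were apart, though the call of ATP5MC3 was lost under 13 of 26 alternatives. Among the small membrane subunits, e (ATP5ME), which takes part in joining ATP synthase dimers, had the lowest value of all members. ATP5ME had 134, 217 and 130.2 CPM in sorafenib polysomes, against 743, 732 and 469 CPM in vehicle polysomes (-2.01 ± 0.29, adjusted p = 2.64e-05). Subunit g (ATP5MG) was at -1.30 ± 0.29, and subunit f (ATP5MF) at -1.43 ± 0.44, and ATP5MF is uncertain because a readthrough row, ATP5MF-PTCD1, held 2656 counts beside 5107 for ATP5MF.

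**Figure D2:**
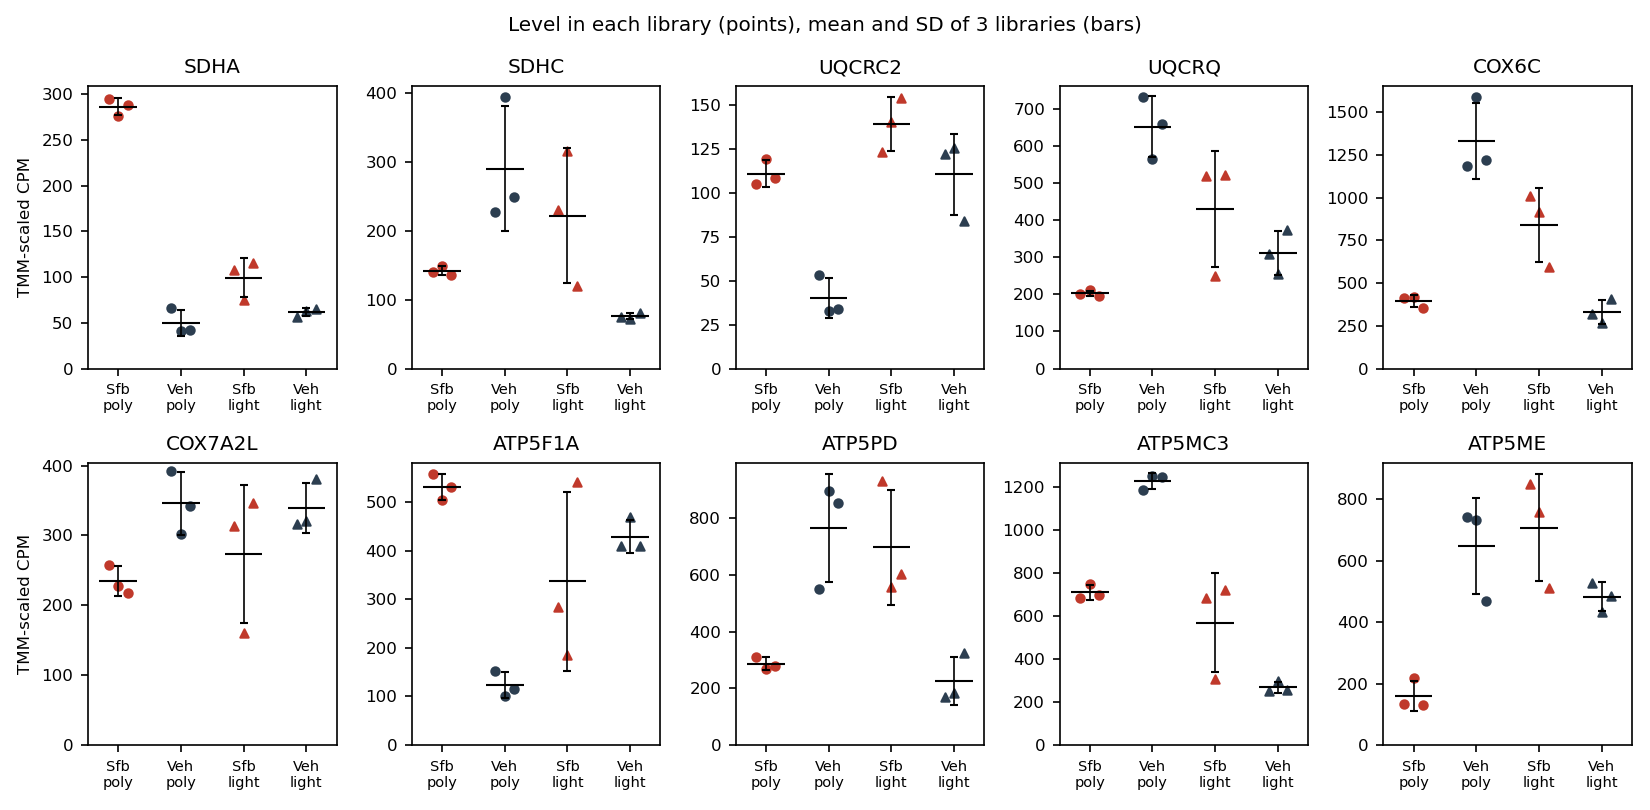
Level of 10 genes in TMM-scaled CPM (vertical axis, from 0) in each of 12 libraries, with Sfb for sorafenib, Veh for vehicle and poly for polysome. Points are libraries, horizontal lines are means and bars are SD of 3 libraries. SDHA, UQCRC2 and ATP5F1A are higher in sorafenib than in vehicle polysomes, and the other 7 genes are lower there, COX7A2L without passing the test.

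In the light fraction the direction was the other way for many of the same genes. With sorafenib 15 of the 39 members rose, none fell, and 24 did not pass the edgeR test. Across all tested genes 29.4% were called, 11.7% higher and 17.7% lower. The members' median log2 fold change was 0.55, against -0.12 for all tested genes. Rises were called in 2 complex II genes, 1 complex III gene, 6 complex IV genes and 6 complex V genes. All 3 sorafenib light libraries lay above the vehicle light libraries in 13 members and below them in 3, UQCRFS1, UQCRH and UQCR11. Such separation was not counted over all tested genes. The count of rises was 24 without the shallow sorafenib light library 2, 20 without both shallow libraries, 8 with all rows that had any count kept, and 28 on library totals alone.

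SDHA had 107, 74.8 and 115 CPM in sorafenib light libraries, against 56.8, 63.2 and 65.6 CPM in vehicle light libraries (0.71 ± 0.24, edgeR adjusted p = 0.0322), a call lost under 12 of 26 alternatives. SDHC had 229.6, 316 and 119.8 CPM in sorafenib light libraries, against 74.8, 72.3 and 81.1 CPM in vehicle light libraries (1.52 ± 0.30, adjusted p = 0.00111), and without both shallow libraries the value was 0.81 and missed the threshold. Libraries were apart for both genes. SDHB, at 171, 108 and 144 CPM in sorafenib light libraries and 95.8, 90.2 and 146 CPM in vehicle light libraries, overlapped (0.37 ± 0.26, adjusted p = 0.287). SDHD spread over 67.5, 33.7 and 98.6 CPM in sorafenib light libraries, around the 41.8, 45.1 and 40.3 CPM of vehicle light libraries (0.73 ± 0.29, adjusted p = 0.0594). The lowest SDHD value was that of the shallowest library.

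In complex III only the core protein UQCRC1 was called in the light fraction (1.24 ± 0.23, edgeR adjusted p = 0.000616). UQCRC2 had 123, 140.3 and 154 CPM in sorafenib light libraries, overlapping the 122, 126 and 83.8 CPM of vehicle light libraries (0.33 ± 0.24, adjusted p = 0.306). UQCRQ had 519.6, 251 and 521 CPM in sorafenib light libraries, against 309, 254 and 374 CPM in vehicle light libraries (0.47 ± 0.27, adjusted p = 0.2), and the shallowest library was again the low one. UQCR11 had 339.9, 179.5 and 318 CPM in sorafenib light libraries, all below the 377, 347 and 520.4 CPM of vehicle light libraries, but the log2 fold change of -0.56 ± 0.26 did not pass the test (adjusted p = 0.114). Taken over the complex, the median was -0.28 in the light fraction, against -1.20 on polysomes.

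The 6 complex IV genes called in the light fraction were COX5A, COX5B, COX6A1, COX6B1, COX6C and COX7B, with log2 fold changes between 0.68 and 1.47. COX6C had 1009, 916 and 597 CPM in sorafenib light libraries, against 321, 265 and 408 CPM in vehicle light libraries, with no overlap (1.34 ± 0.27, edgeR adjusted p = 0.00135). COX5B, which binds zinc on the matrix side, averaged 643 ± 132 CPM in sorafenib light libraries and 236 ± 43.2 CPM in vehicle light libraries (SD, n = 3 each). COX7A2 was split, with 208, 69.2 and 258 CPM in sorafenib light libraries, around the 122, 113 and 125 CPM of vehicle light libraries (0.61 ± 0.33, adjusted p = 0.166). Without both shallow libraries it was at 1.26 and passed the test. COX7A2L had 313, 161 and 347 CPM in sorafenib light libraries, against 316, 321 and 381 CPM in vehicle light libraries (-0.29 ± 0.26, adjusted p = 0.417), and its sign turned to 0.19 without both shallow libraries.

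Complex V genes called in the light fraction were ATP5F1B, ATP5F1C, ATP5F1D, ATP5PB, ATP5PD and ATP5MC3. ATP5PD had 931, 559 and 603 CPM in sorafenib light libraries, against 169, 185 and 325 CPM in vehicle light libraries, the highest rise among the members (1.63 ± 0.30, edgeR adjusted p = 0.000708). ATP5MC3 had 686, 307 and 720.2 CPM in sorafenib light libraries, against 253, 299 and 257 CPM in vehicle light libraries (1.09 ± 0.28, adjusted p = 0.00769). Both genes had all sorafenib libraries above all vehicle libraries, the lowest for ATP5MC3 by a narrow margin. The other c-subunit genes did not pass: ATP5MC1 had 96.3, 78.6 and 108 CPM in sorafenib light libraries, against 80.8, 61.5 and 53.1 CPM in vehicle light libraries (0.55 ± 0.25, adjusted p = 0.0962). ATP5MC2 had 642, 348 and 585 CPM in sorafenib light libraries, against 378, 375 and 474 CPM in vehicle light libraries (0.37 ± 0.26, adjusted p = 0.296). ATP5ME had 849, 759 and 512 CPM in sorafenib light libraries, which overlapped the 528, 435 and 486 CPM of vehicle light libraries (0.55 ± 0.28, adjusted p = 0.152). ATP5F1A ranged over 284, 185 and 542 CPM in sorafenib light libraries, around the 409, 469 and 409.6 CPM of vehicle light libraries (-0.33 ± 0.30, adjusted p = 0.431), and was at 0.49 without both shallow libraries.

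The members were then asked whether sorafenib acted differently on the polysome and light pools, as the polysome effect minus the light effect. In this interaction 25 members were lower, 3 were higher and 11 were not called (edgeR quasi-likelihood test), while 23.6% of all tested genes were called, 10.7% lower and 12.8% higher. The members' median was -1.31, against 0.02 for all tested genes. Complex IV had 10 of its 11 genes called lower and complex V had 10 of 15, whereas complex II had 2 of 4 and complex III 3 of 9. The 3 called higher were SDHA (1.81 ± 0.33, adjusted p = 0.000791), UQCRC2 (1.14 ± 0.33, adjusted p = 0.0181) and ATP5F1A (2.44 ± 0.43, adjusted p = 0.000603), and UQCRC2 missed the threshold without both shallow libraries. UQCRC1 rose in both pools and was at 0.16 ± 0.31 (adjusted p = 0.759), and ATP5F1B at 0.74 ± 0.33 (adjusted p = 0.11). A fall on polysomes together with a rise in the light pool was not counted over all tested genes. In 10 members both were called: SDHC, COX5A, COX5B, COX6A1, COX6B1, COX6C, COX7B, ATP5F1D, ATP5PD and ATP5MC3. The lowest interaction values were -3.18 ± 0.43 (COX7B), -3.09 ± 0.39 (COX6C) and -3.04 ± 0.43 (ATP5PD).

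The count of members called lower in the interaction was 26 without both shallow libraries and 13 with all rows that had any count kept. Leaving out each library in turn gave 14 to 30, with 14 without vehicle light library 1, sorafenib light library 1 or sorafenib light library 3, 15 without vehicle light library 2, and 16 without sorafenib polysome library 1 or 3. The calls of SDHB and UQCR11 were lost under 11 of 26 alternatives each.

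Since both pools of a culture come from the same lysate, the ratio of polysome to light CPM can be read within each culture. Its median over the members, on the log2 scale, was -1.09, 0.01 and -1.06 in sorafenib cultures 1 to 3, against 0.70, 0.66 and 0.55 in vehicle cultures 1 to 3. Culture 2, with the shallowest light library, stood apart from the other sorafenib cultures but still lay below every vehicle culture. In 24 members all 3 sorafenib cultures had a lower ratio than all 3 vehicle cultures, in 4 (SDHA, UQCRC2, ATP5F1A and ATP5F1B) they had a higher one, and in 11 they overlapped. This split was not counted over all tested genes. By complex, the medians were -1.29, -0.46 and -1.21 in sorafenib cultures and 1.37, 0.99 and 1.04 in vehicle cultures for complex IV, and -0.96, 0.01 and -1.02 in sorafenib cultures and 0.20, 0.30 and 0.36 in vehicle cultures for complex III. For complex V they were -1.21, 0.09 and -1.11 in sorafenib cultures and 0.70, 0.54 and 0.55 in vehicle cultures, and for complex II -0.19, 0.52 and 0.07 in sorafenib cultures and 0.99, 0.87 and 1.01 in vehicle cultures. The same medians over all tested genes, with 0.5 CPM added, were 0.07, 0.13 and 0.04 in sorafenib cultures and -0.06, -0.04 and -0.03 in vehicle cultures.

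**Figure D3:**
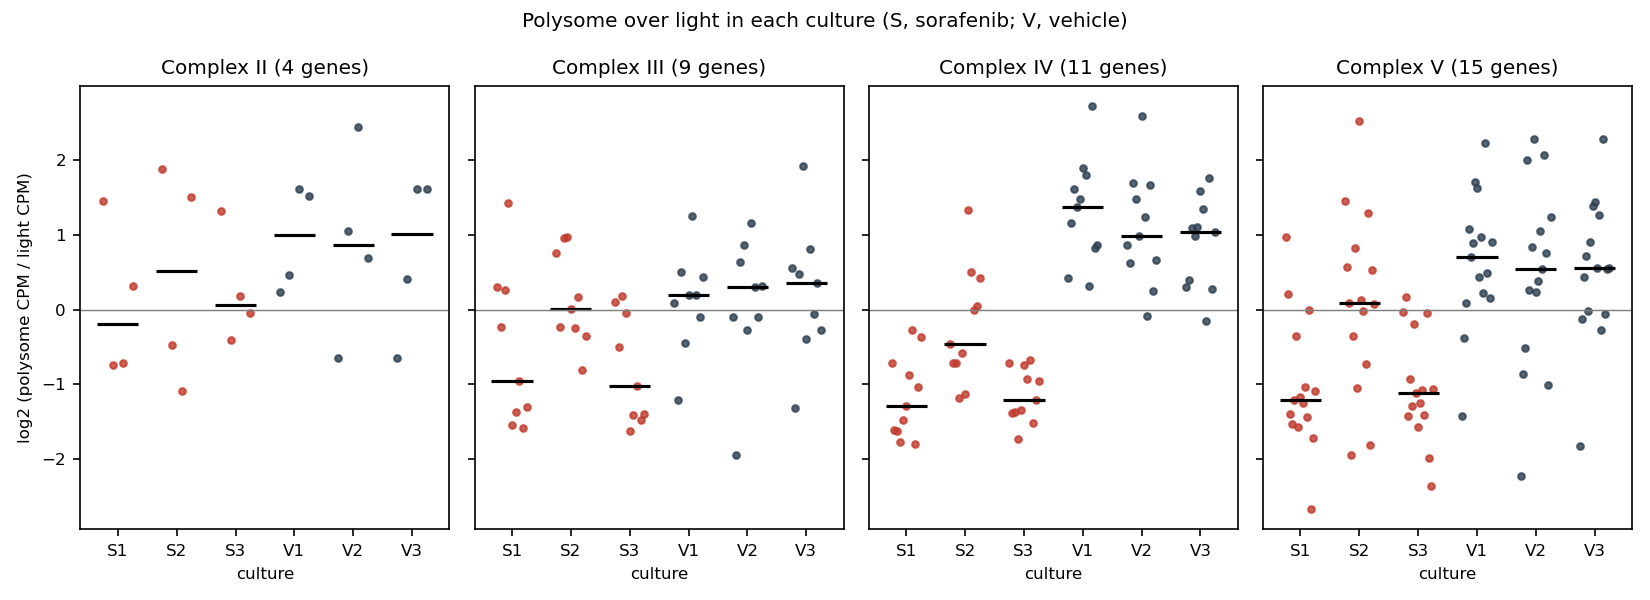
Log2 ratio of polysome to light CPM (vertical axis) in each sorafenib culture (S1 to S3) and vehicle culture (V1 to V3), one panel per complex. Points are genes and horizontal lines are medians. For complex IV the sorafenib medians are -1.29, -0.46 and -1.21 and the vehicle medians 1.37, 0.99 and 1.04.

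Within each treatment, polysome was also set against light. In sorafenib cultures 20 members were lower on polysomes and 1, SDHA, was higher (1.50 ± 0.24, edgeR adjusted p = 0.000236), beside 12.4% lower and 13.4% higher (25.8% in all) among all tested genes. In vehicle cultures 2 members, UQCRC2 (-1.47 ± 0.24) and ATP5F1A (-1.80 ± 0.31), were lower on polysomes and 18 were higher, beside 17.8% lower and 18.3% higher (36.1% in all) among all tested genes. The highest in vehicle cultures were ATP5MC3 (2.19 ± 0.29), COX7B (2.09 ± 0.31) and COX6C (2.01 ± 0.28). In 10 members both calls were made, lower in sorafenib and higher in vehicle cultures, which was not counted over all tested genes. These counts depend on how pools of unlike content are scaled: with TMM computed within each fraction, 3 members were lower and 9 higher in sorafenib cultures, and 31 were higher in vehicle cultures. Leaving out sorafenib light library 1 or 3 gave 8 or 9 lower in sorafenib cultures. That scaling moved the median of all tested genes to 0.79 in sorafenib cultures and 0.58 in vehicle cultures, whereas the members' median relative to it was -0.78 in sorafenib cultures and 0.68 in vehicle cultures under both scalings. With all rows that had any count kept, it was -0.0543 in sorafenib cultures, with 21 members below and 18 above the all-gene median, and 0.73 in vehicle cultures.

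Summed per complex, complex IV genes reached 2365 ± 134 CPM in sorafenib polysomes and 5984 ± 237 CPM in vehicle polysomes, and 4551 ± 901 CPM in sorafenib light pools and 2852 ± 343 CPM in vehicle light pools (SD, n = 3 each). Complex V genes summed to 4125 ± 157 CPM in sorafenib polysomes and 7188 ± 122 CPM in vehicle polysomes, and to 6403 ± 1347 CPM in sorafenib light pools and 4534 ± 449 CPM in vehicle light pools. Complex III genes summed to 1536 ± 89.7 CPM in sorafenib polysomes and 3042 ± 126 CPM in vehicle polysomes, and to 2322 ± 679 CPM in sorafenib light pools and 2576 ± 194 CPM in vehicle light pools. The complex II sums on polysomes were 616 ± 15.4 CPM with sorafenib and 616 ± 73.9 CPM with vehicle, with SDHA higher and SDHB and SDHC lower, and in light pools they were 529 ± 49.6 CPM with sorafenib and 291 ± 36.2 CPM with vehicle.

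**Figure D4:**
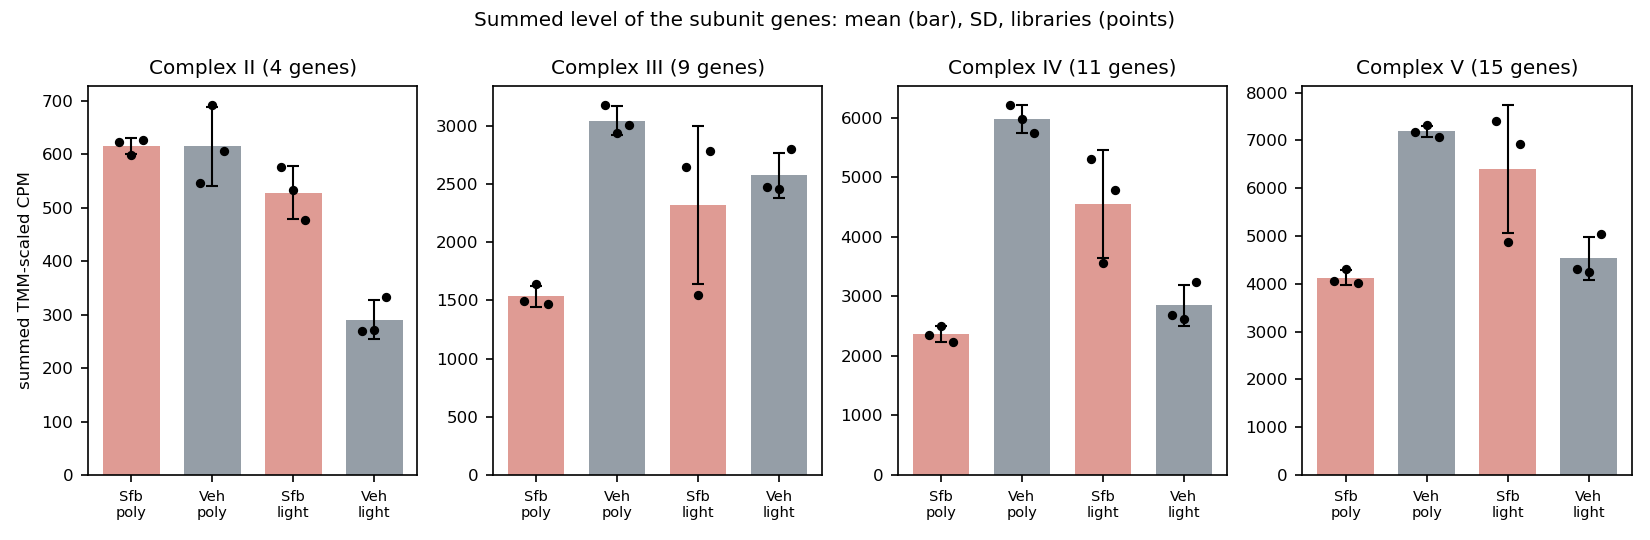
Summed TMM-scaled CPM of the subunit genes (vertical axis, from 0) per complex in the 4 groups, with Sfb for sorafenib, Veh for vehicle and poly for polysome. Bars are means, error bars SD and points the 3 libraries. Sorafenib polysomes lie below vehicle polysomes for complexes III, IV and V, at 1536, 2365 and 4125 CPM against 3042, 5984 and 7188 CPM, and level with them for complex II at 616 CPM.

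Read against the start sites printed above, 7 of the 8 members with a pyrimidine start fell on polysomes and none rose, with a median log2 fold change of -1.13, the eighth being COX7A2L. Of the 23 matched members without it 16 fell and 4 rose (median -1.23). In the light fraction none of the 8 was called (median 0.03), whereas 10 of the 23 rose (median 0.68). Among all tested genes with a window, 733 of 9976 had such a start and 9243 did not. On polysomes 205 of the 733 were lower and 169 higher (median -0.17). Of the 9243, 2589 were lower and 2209 higher there (median -0.16). In the light fraction 178 of the 733 were lower and 65 higher (median -0.28). Of the 9243, 1508 were lower and 1169 higher in that fraction (median -0.05). For the ETS core, 13 of 15 members with it fell on polysomes and 1 rose (median -1.25). Of the 16 without it 10 fell and 3 rose (median -1.02). Calls by the ETS core were not counted over all tested genes, of which 28.8% were lower and 20.9% higher on polysomes. These are descriptions of letters in a window, and no difference between the groups of genes was tested.

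Other genes of the same machinery were counted in the same fit. Beside these counts, 28.8% of all tested genes were lower and 20.9% higher on polysomes. In the light fraction 17.7% of all tested genes were lower and 11.7% higher. Of 13 further subunits, tissue-specific isoforms and partners of complexes II to V, 7 were tested, and on polysomes 6 were lower and none higher (median log2 fold change -1.36). They included ATP5MD (-1.95 ± 0.26), ATP5MPL (-1.39 ± 0.23) and CYCS, which is cytochrome c itself (-1.40 ± 0.26, edgeR adjusted p = 0.000213). In the light fraction none of the 7 was called. Of 37 assembly factors, 27 were lower on polysomes and 2 higher, COX15 (1.35 ± 0.22), a heme A synthase, and LRPPRC (1.98 ± 0.27), which stabilises mitochondrial mRNAs. SLIRP, the small partner of LRPPRC, was at -1.86 ± 0.25 on polysomes and 1.00 ± 0.25 in the light fraction, and LYRM7, a complex III assembly factor, at -2.24 ± 0.28 on polysomes. In the light fraction 7 of the 37 were higher and 7 lower (18.9% each), with a median of -0.0046, against -0.12 for all tested genes. The share called lower there was near that of all tested genes. LRPPRC and SLIRP had opposite signs on polysomes, as the core proteins and small subunits of complex III did.

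The 6 mitochondrially encoded subunits of complexes III to V are translated inside mitochondria. All 6 were called lower in the polysome than in the light pool under both treatments. Their median log2 difference was -3.67 in sorafenib cultures and -4.75 in vehicle cultures. Of all tested genes, 12.4% were lower in this way in sorafenib cultures and 17.8% in vehicle cultures. On polysomes MT-CYB (-3.0 ± 0.53), MT-CO2 (-1.19 ± 0.42), MT-CO3 (-2.05 ± 0.52), MT-ATP6 (-1.78 ± 0.48) and MT-ATP8 (-1.94 ± 0.47) were lower with sorafenib, and MT-CO1 was at -0.95 ± 0.41 (edgeR adjusted p = 0.0606). In the light fraction all 6 fell, with a median of -2.68, and none was called in the interaction. Their light-pool fall stands beside the 15 rises and no fall among the 39 nuclear members. The shares of all tested genes were 28.8% lower and 20.9% higher on polysomes, and 17.7% lower and 11.7% higher in the light fraction. In the interaction 23.6% of all tested genes were called. For comparison, the 37 nuclear subunits of complex I, which feeds electrons from NADH into the chain, had 28 lower and 4 higher on polysomes (median -1.11) and 23 higher and none lower in the light fraction (median 0.72). Among them, NDUFA3 was at -1.89 ± 0.22 and NDUFB1 at -2.12 ± 0.27 on polysomes.

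Near-identical copies could take or give reads in a few members. Rows named as pseudogenes, by a member's current or older symbol followed by P and a number, existed for 27 members (104 rows). Their counts exceeded 1% of the member's in SDHA (14.3%) and COX6A1 (3.96%). UQCRHL, an intronless copy of UQCRH, held 3723 counts, 6.46% of those of UQCRH. The lowest count of any member in a library was 4, for ATP5PF in sorafenib light library 2.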

How the data were processed

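RNA of 12 HepG2 libraries (4 groups of 3, grouped by title) was analysed from raw gene counts, whole numbers as deposited. GRCh38.p12 is the genome build, per the submitters' processing notes. The aligner, the counter and the strandedness of counting were not given in the sources used here. Members and lists were chosen with earlier results of these data known.

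The test was that of edgeR 4.0.16 (R 4.3.3, limma 3.58.1): filterByExpr, TMM, 1 quasi-likelihood fit over the 4 groups without a block, Benjamini-Hochberg adjustment over 14955 genes. Untested rows held 0.15% to 4.54% of a library's counts. Totals of 511065 to 13336689 counts set the precision. The common biological coefficient of variation was 0.245. CPM are TMM-scaled, except those of the marker sums, which were scaled to library totals alone. Each SE is the size of the log2 estimate divided by the root of its F statistic. Methods were tested on simulated data. DESeq2 1.42.0, other scalings, filters, blocks and left-out libraries were alternatives. Figures used matplotlib 3.10.9.

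The labels call the experiments triplicate. Where libraries are not from separate cultures, p-values measure only the spread between them. Pools of the same number and treatment come from 1 culture, per the labels, and their deviations from group means correlated at 0.05, 0.04 and 0.04 in sorafenib and 0.14, -0.07 and 0.33 in vehicle cultures. The index number in the labels is the same for sorafenib polysome library 3 and vehicle light library 1, and no run is named for either.

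Genes named with every library's value were, per complex, the one with the smallest adjusted p in the interaction, the highest and lowest on polysomes, all of complex II, the c-subunit genes, and COX7A2 with COX7A2L. Of other lists, the 3 smallest p-values on polysomes and all mitochondrially encoded genes were named. A gene that this rule selects is not reported here. COX15 and the other members were named after their values were seen. RefSeq windows (GRCh38.p14) were matched by symbol for 31 members. A comparison by protein length was not run.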

Additional observations from a re-analysis of the deposited data

Results flagged for a closer look

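The effect of sorafenib differed between the polysome and light pools in 28 members by the test of the difference itself, the interaction of the edgeR quasi-likelihood fit, with 25 lower and 3 higher. Of all tested genes, 10.7% were called lower and 12.8% higher in the interaction. Values are log2 of the polysome effect minus the light effect. The 3 higher members were SDHA (1.81), UQCRC2 (1.14) and ATP5F1A (2.44). In complex II, SDHB (-1.19) and SDHC (-2.55) were lower. In complex III, UQCRQ (-2.16), UQCR10 (-1.29) and UQCR11 (-1.23) were lower. In complex IV, the values were -1.17 for COX4I1, -1.997 for COX5A, -2.70 for COX5B, -2.85 for COX6A1, -2.35 for COX6B1, -3.09 for COX6C, -1.86 for COX7A2, -3.18 for COX7B, -1.26 for COX7C and -1.30 for COX8A. In complex V, they were -2.80 for ATP5F1D, -1.31 for ATP5F1E, -3.04 for ATP5PD, -1.91 for ATP5PF, -1.35 for ATP5PO, -1.79 for ATP5MC1, -1.41 for ATP5MC2, -1.88 for ATP5MC3, -2.56 for ATP5ME and -1.64 for ATP5MG. Without both shallow sorafenib light libraries 26 members were lower and 2 higher, SDHC was at -1.59 and COX6C at -2.50, and SDHB (adjusted p = 0.0567) and UQCRC2 (adjusted p = 0.0734) missed the threshold of the edgeR test.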

How the results depend on the processing

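On polysomes the 5 rises were called under every alternative and with each library left out, and the falls numbered 23 to 28 with a library left out and 12 with no low-count filter. With no low-count filter 8 members were higher in the light fraction, 13 lower in the interaction, and 7 higher and 3 lower on polysomes within sorafenib cultures. On library totals alone 28 were higher in the light fraction, 9 higher and 8 lower within sorafenib cultures, and 35 higher within vehicle cultures. With TMM within each fraction the last 3 counts were 9, 3 and 31. Leaving out each library in turn gave 10 to 24 rises and 0 to 1 falls in the light fraction (24 without sorafenib light library 2, 1 without library 3), 14 to 30 lower in the interaction, and 1 to 7 higher and 8 to 23 lower within sorafenib cultures. The lowest of these was 8 without sorafenib light library 1, with 9 lower and 7 higher without library 3, 12 lower without sorafenib polysome library 3, and 13 lower without vehicle light library 1, vehicle light library 2 or sorafenib polysome library 1. The cause was not tested.

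With the replicate number as a block, 29 members were lower and 5 higher on polysomes, 15 higher in the light fraction and 25 lower in the interaction, and within cultures 20 lower (sorafenib) and 19 higher (vehicle). With culture as a replicate block, 26 were lower in the interaction, 19 lower within sorafenib cultures and 19 higher within vehicle cultures. Same-numbered sorafenib and vehicle libraries of a fraction correlated at -0.20 to 0.02 in their deviations from group means. The 2 pools of a culture reached only 0.04 to 0.05 in sorafenib and -0.07 to 0.33 in vehicle cultures. Such values therefore cannot tell whether the numbers pair treatments.

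Signs turned for members that were not called. SDHD on polysomes was 0.026 with TMM within each fraction, 0.20 with no filter, 0.023 with only the groups compared, 0.065 without both shallow libraries, 0.050 with another TMM reference and -0.41 to 0.077 with a library left out. ATP5F1C on polysomes was 0.063, 0.24, 0.060, 0.10, 0.087 and -0.34 to 0.11 under the same settings. With a library left out, CYC1 on polysomes was -0.30 to 0.70 and ATP5PB -0.13 to 0.29 (-0.00735 with upper quartile scaling). In the light fraction COX7A2L was 0.15 and ATP5F1A 0.11 on library totals, 0.19 and 0.49 without both shallow libraries, and -0.51 to 0.084 and -0.88 to 0.0758 with a library left out. COX7A2L in the interaction was 0.23 with no filter and -0.41 to 0.22 with a library left out.

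The median of all tested genes on polysomes was -0.26, and -0.03 with TMM within each fraction. Relative to it the members' median was -1.07 to -0.78 on polysomes, 0.20 to 0.96 in the light fraction, -1.71 to -0.44 in the interaction, -1.02 to -0.0543 within sorafenib cultures and 0.61 to 0.86 within vehicle cultures over all settings. Low counts in the shallow sorafenib light libraries limit the precision of their values.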
